A study of Drosophila melanogaster with 3 samples.

Results

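The regions described here are intronic binding sites of CG2116-eGFP that lie near, but not at, the starts of protein-coding genes. They were taken from the authors' optimal IDR list on dm6 by position alone. IDR (irreproducible discovery rate) sets the cutoff of a peak list from the agreement of ranks between replicates. It does not say that each peak kept was found in every replicate. A summit had to lie over 500 and up to 2000 bp from the nearest protein-coding transcription start, over 500 bp from every noncoding start, inside a transcript and in no exon. Of 7137 IDR peaks on the 6 main arms, 502 met this rule (7.03%), and they are called near-start intronic peaks. The study mapped, by chromatin immunoprecipitation and sequencing (ChIP-seq) with an antibody against GFP, where CG2116 carrying eGFP at its C terminus sits on chromatin. The material was whole embryos of the transgenic strain CG2116-GFP, of mixed sex and aged 0 to 24 h, in 1 group of 3 libraries that the labels number as biological replicates 1, 2 and 4. All cell types and stages of that day were thus pooled, and what drives the tagged gene is not stated in the labels. No peak list of untagged embryos or of input chromatin was used here, so background sites of the antibody cannot be told apart from sites of CG2116.

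Introns close to a gene start, above all the first intron, can hold enhancers, silencers and further promoters of the same gene. A ChIP peak in such an intron says that the tagged protein was crosslinked at or near that DNA, either bound to it or held there through other proteins or a chromatin loop. RefSeq lists the product of CG2116 as uncharacterised.

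Some of the strongest of these peaks held the word GCAACNCT close to the summit. The lines that follow show 60 bases around it for the 7 strongest peaks that also have T before and G after the word, and for CtBP, a peak that does not. Capitals mark GCAACNCT, and each line reads 5′ to 3′ on the strand that holds it, from the RefSeq copy of dm6.
COX7AL2, chr2L:2193554-2193613, plus strand: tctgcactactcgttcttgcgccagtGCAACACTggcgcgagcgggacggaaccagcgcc
CG42507 and Trl, chr3L:14755341-14755400, minus strand: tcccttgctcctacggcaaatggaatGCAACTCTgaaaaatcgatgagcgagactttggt
Fs(2)Ket, chr2L:20735500-20735559, minus strand: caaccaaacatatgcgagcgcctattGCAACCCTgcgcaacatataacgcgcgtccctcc
Pdha, chrX:4702999-4703058, minus strand: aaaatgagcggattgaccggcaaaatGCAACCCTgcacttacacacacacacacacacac
Prp16, chrX:14213620-14213679, minus strand: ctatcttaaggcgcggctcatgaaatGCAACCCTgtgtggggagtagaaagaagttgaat
crol, chr2L:11807586-11807645, plus strand: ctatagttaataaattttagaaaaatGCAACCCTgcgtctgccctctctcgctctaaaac
robo2, chr2L:1419821-1419880, plus strand: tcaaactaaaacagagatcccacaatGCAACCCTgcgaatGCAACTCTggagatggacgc
CtBP, chr3R:13013156-13013215, plus strand: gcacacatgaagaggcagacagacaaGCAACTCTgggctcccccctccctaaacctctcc

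The word TATCGATA, the DNA replication-related element, marks many fly promoters and is shown because it was rare at these intronic summits. Capitals mark it in the 5 strongest peaks that held it, in 40 bases of dm6 each. The word reads alike on both strands.
Stt3A, chrX:21053305-21053344, plus strand: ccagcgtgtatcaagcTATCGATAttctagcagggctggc
Ncoa6, chr2L:5325466-5325505, plus strand: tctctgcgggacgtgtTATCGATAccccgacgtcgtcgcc
Atg17, chr3R:5671029-5671068, plus strand: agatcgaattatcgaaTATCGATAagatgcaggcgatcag
woc, chr3R:27263479-27263518, plus strand: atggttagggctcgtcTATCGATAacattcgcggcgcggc
Tudor-SN, chr3L:262913-262952, plus strand: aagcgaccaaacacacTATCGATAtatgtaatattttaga

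Of the 12 strongest peaks, 7 held neither word. For 6 of these 7, all but the second strongest peak at CG30379, 81 bases centred on the summit are given, with no capitals, since no word searched is shared by all of them.
ush, chr2L:481044-481124, plus strand: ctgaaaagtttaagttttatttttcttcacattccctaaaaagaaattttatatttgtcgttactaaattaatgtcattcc
CG11050, chr2L:6612674-6612754, plus strand: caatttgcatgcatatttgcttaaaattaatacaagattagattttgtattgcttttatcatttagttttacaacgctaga
CG32772, chrX:4910354-4910434, plus strand: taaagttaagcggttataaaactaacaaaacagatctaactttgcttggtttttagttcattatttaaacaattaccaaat
Asator, chr4:486670-486750, plus strand: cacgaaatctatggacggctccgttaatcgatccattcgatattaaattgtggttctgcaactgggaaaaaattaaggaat
Trl, second peak, chr3L:14759469-14759549, plus strand: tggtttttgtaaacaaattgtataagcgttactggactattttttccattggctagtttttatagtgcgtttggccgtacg
cno, chr3R:5215490-5215570, plus strand: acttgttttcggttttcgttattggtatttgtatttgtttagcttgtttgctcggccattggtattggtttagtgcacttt
The GC content of these 81 bases was 23.5% at ush, 24.7% at CG11050 and at CG32772, 35.8% at cno and at the second Trl peak, and 38.3% at Asator.

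The strength of a peak is given as relative signal, the signal deposited by the authors at a replicate's nearest summit within 100 bp over the median of such values across IDR peaks in that replicate. Replicate 1 had such a summit for 471 of the 502 near-start intronic peaks, replicate 2 for 459 and replicate 4 for 487. The read depth behind these values is unknown, and nothing but the replicate numbers says that the embryos were separate collections, so part of the replicate spread may be technical. Relative signal had a median of 0.721 in replicate 1 (quartiles 0.555 and 1.03), 0.712 in replicate 2 (0.490 and 1.01) and 0.841 in replicate 4 (0.634 and 1.22). Most of these peaks were thus weaker than the median matched IDR peak, and a few were far stronger.

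The strongest lay in the first intron of COX7AL2, a gene named for a cytochrome c oxidase subunit of the respiratory chain. Its relative signal was 26.02, 20.23 and 29.65 in replicates 1, 2 and 4, a mean of 25.3 ± 4.75 (SD, n = 3), and it ranked 96th of the IDR list by pooled signal. The peak covered chr2L:2193147-2193885, with its summit 574 bp upstream of the nearest start, an inner start of the same gene. Every replicate gave it over 20 times its median, and no other near-start intronic peak reached 11 in any replicate. Second was a peak in the first intron of CG30379 (chr2R:7940473-7941063), 775 bp downstream of the start, at 9.85, 10.6 and 9.17. It was followed by a peak shared by introns of CG42507 and Trl, the gene of the GAGA factor (chr3L:14755140-14755616), 1957 bp downstream of the nearest Trl start, at 7.40, 7.20 and 7.51. The ranges of these 3 peaks over the replicates did not overlap.

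The next peaks lay close together in strength. Fs(2)Ket, which encodes the nuclear import receptor importin beta (chr2L:20735220-20735782, 603 bp downstream), stood at 6.47, 5.89 and 6.44. A peak in the first intron of ush, which encodes a cofactor of GATA factors (chr2L:480894-481293), stood at 6.34, 4.89 and 6.77. Its summit lay 1396 bp upstream of the start of cbt, a zinc finger gene that does not span it. CG11050 held a peak in a second intron of only 140 bp (chr2L:6612492-6612920), at 5.53, 3.68 and 7.66, so the 429-bp peak extended over its flanking exons. These ranges overlapped, and the order of the 3 was not resolved by the replicates.

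Pdha, which encodes the alpha subunit of pyruvate dehydrogenase, held a peak 702 bp downstream of its start (chrX:4702797-4703263) at 4.69, 4.27 and 4.90. Prp16, a helicase of the spliceosome, held one 1271 bp downstream (chrX:14213499-14213895) at 4.45, 4.61 and 4.50. The mean of 4.62 ± 0.323 at Pdha and that of 4.52 ± 0.0831 at Prp16 (SD, n = 3 each) differed by less than the spread at Pdha. CG32772 (chrX:4910179-4910543) had 4.21, 2.79 and 5.32. Asator, which encodes a kinase of the tau tubulin kinase family (chr4:486538-486893), had 4.19, 3.86 and 3.72. The summit at Asator lay 677 bp upstream of an inner start, and that at CG32772 lay 1292 bp downstream. A second Trl peak (chr3L:14759314-14759726), 1540 bp downstream of another Trl start, had 3.62, 3.59 and 4.36. The twelfth, in the first intron of cno, whose product links adherens junctions to actin (chr3R:5215355-5215700), had 3.66, 2.97 and 4.81. Replicate 2 was the lowest at 9 of the 12 peaks, and all 12 were found in all 3 replicates.

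**Figure D1:**
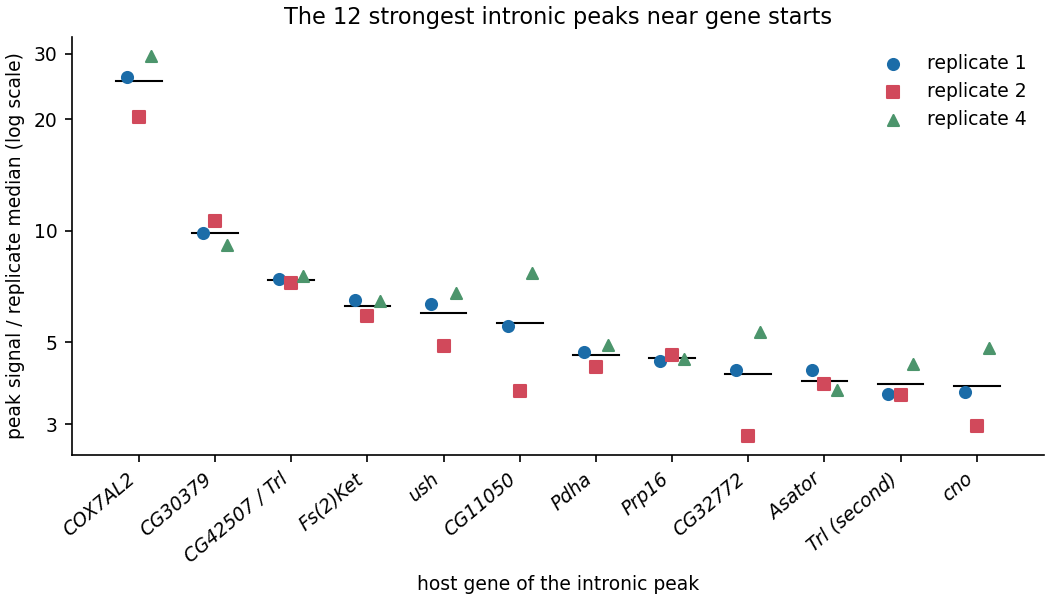
Relative signal (peak signal divided by the replicate median, log scale) of the 12 strongest near-start intronic peaks in replicates 1, 2 and 4, with the mean as a line. COX7AL2 stands apart at 25.3, CG30379 follows at 9.87, and the other 10 means run from 7.37 to 3.81.

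Recovery across replicates was partial. A peak counted as recovered where a replicate had, within 100 bp, a summit among its own 7137 strongest. Replicate 1 recovered 380 of the 502 peaks (75.7%), replicate 2 recovered 327 (65.1%) and replicate 4 recovered 447 (89.0%), a mean of 76.6% ± 11.98 (SD, n = 3). Over all IDR peaks the shares were 84.7%, 79.5% and 86.5%. Replicates 1 and 2 thus recovered a smaller share of the intronic peaks than of all IDR peaks, with the wider gap in replicate 2. Replicate 4 recovered a larger share. All 3 replicates recovered 249 of 502, or 49.6% (exact Clopper-Pearson 95% interval 45.1 to 54.1), against 64.5% of all IDR peaks. A further 164 were recovered in 2 replicates, 79 in 1 and 10 in none. The IDR list was made from these libraries, so recovery is in part built in, and this and every interval here covers counting error only, since neighbouring peaks are not independent.

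The weaker peaks were the ones missed, which is in large part built in. Recovery asks for a summit among a replicate's 7137 strongest, and the groups that follow are cut by pooled signal from the same libraries. Of the 126 strongest near-start intronic peaks by pooled signal, 117 were recovered in all 3 replicates (92.9%). The next 125 gave 63.2%, the 125 after them 36.8%, and the weakest 126 gave 5.56%. Among the 155 peaks that ranked among the 3568 strongest of the whole IDR list, 89.0% were recovered. With whole replicate lists in place of the 7137 strongest summits, the share for all 502 was 83.3%. Across the peaks matched in both, the rank correlation of signal (Spearman's rho) came to 0.670 for replicates 1 and 2 (n = 430), 0.684 for 1 and 4 (n = 458) and 0.576 for 2 and 4 (n = 445). These are correlations across peaks within shared libraries, and all 3 were below those over all IDR peaks, at 0.847, 0.829 and 0.746.

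Near-start intronic peaks were slightly stronger than the 706 intronic IDR peaks over 2000 bp from a coding start in every replicate. Their median relative signal was 0.721 against 0.644 for the far ones in replicate 1, 0.712 against 0.608 in replicate 2 and 0.841 against 0.743 in replicate 4. The log2 difference was 0.19 ± 0.034 (SD, n = 3), positive in 3 of 3 replicates, with p = 0.25 in an exact two-sided sign-flip permutation test, the smallest value 3 replicates can give. Against the 5166 peaks within 500 bp of a coding start they were weaker in each replicate, 0.721 against 1.17, 0.712 against 1.18 and 0.841 against 1.14, a log2 difference of -0.62 ± 0.16 (SD, n = 3, exact p = 0.25). Both differences exceeded their spread between replicates, and neither test could pass 0.05. Intergenic peaks had medians of 0.727, 0.666 and 0.772 in replicates 1, 2 and 4, and peaks at noncoding starts only had 0.785, 0.727 and 0.872. Near-start intronic peaks were thus above intergenic ones in replicates 2 and 4 only, and below those at noncoding starts in each. Recovery in all 3 replicates was 49.6% of near-start intronic, 44.9% of far intronic and 70.9% of promoter peaks. It was 49.2% of intergenic peaks and 49.6% of those at noncoding starts. Recovery is defined by signal, so it is not a measure separate from strength.

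**Figure D2:**
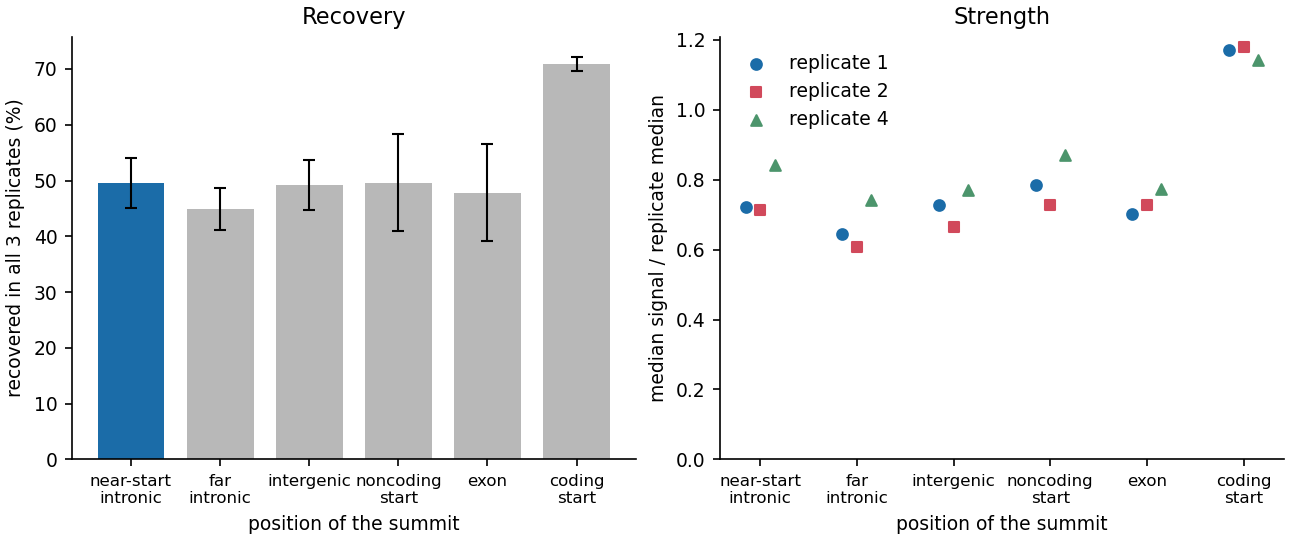
Left, share of IDR peaks recovered in all 3 replicates by position of the summit, with exact 95% intervals; right, median relative signal in each replicate. Near-start intronic peaks, at 49.6% and at 0.721, 0.712 and 0.841, sit above far intronic peaks in each replicate and below peaks at coding starts. Intergenic and noncoding-start peaks lie close to them.

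IDR peaks were denser in near-start introns than in far ones. Sequence that meets the position rule came to 10.1 Mb, or 7.54% of the 6 arms, and held 49.7 IDR peaks per Mb. Far introns held 16.5 per Mb over 42.7 Mb, windows within 500 bp of coding starts held 337 per Mb, and the 6 arms together held 53.3. Near-start introns were thus close to the average of the arms. Of the 30000 peaks of the relaxed pooled list, 3459 met the rule, and 14.5% of these passed IDR (13.4 to 15.7), against 9.14% in far introns, 49.7% at coding starts and 23.8% of the whole list. The 2957 that met the position rule and did not pass, called lower-ranked peaks, had a median pooled signal of 57.9 and none above 144.06, while the 502 had a median of 228.01 and none below 144.07. At these positions the IDR list thus amounted to a cut on pooled signal. The share that passed and the comparison with lower-ranked peaks both set stronger against weaker calls of 1 list.

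The density fell with distance from the start. At over 500 to 800 bp there were 168 peaks, or 70.9 per Mb, then 119 (54.1 per Mb) to 1100 bp, 78 (39.0) to 1400 bp, 77 (41.8) to 1700 bp and 60 (35.5) to 2000 bp. Downstream of the start the values were 63.8, 60.5, 45.9, 45.5 and 32.0 per Mb in the same order. Upstream they were 83.6, 41.2, 24.7, 33.95 and 43.1, highest in the nearest bin and with wide intervals beyond it. The median pooled signal did not follow this order, at 228.79, 218.00, 238.95, 249.46 and 211.02 in the 5 bins. Of the peaks just inside and just outside the limits, MEP-1 (501 bp), Diap1 (502 bp) and CG14434 (505 bp) had pooled signals of 268.31, 252.34 and 273.64, while t-cup (499 bp), ph-p (490 bp) and CG42780 (490 bp) had 318.01, 760.06 and 167.19. At the outer limit Rab11 (1999 bp), COX7C (1997 bp) and be (1995 bp) had 172.76, 376.13 and 271.64, while CG12290 (2001 bp), CG9171 (2009 bp) and IP3K2 (2017 bp) had 292.14, 215.66 and 204.46.

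**Figure D3:**
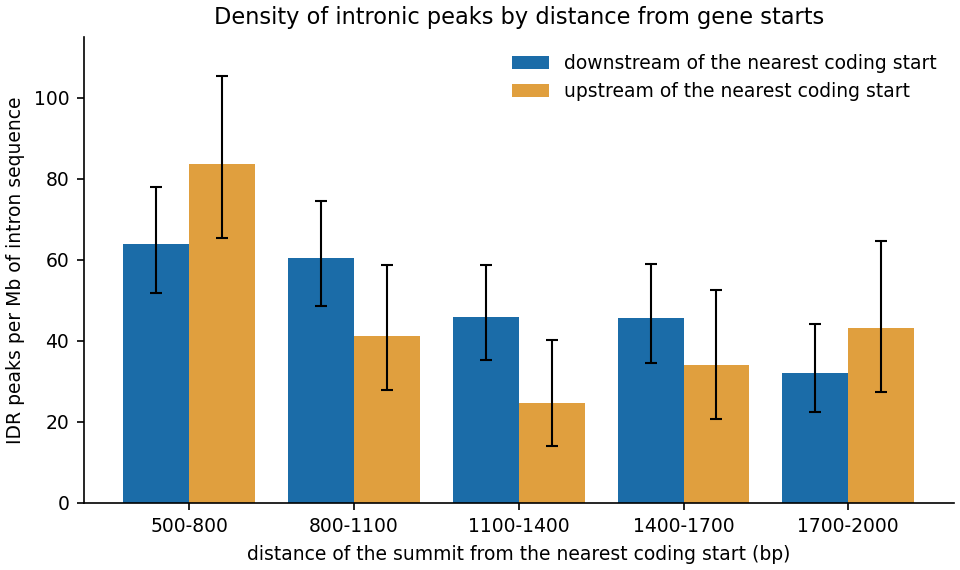
IDR peaks per Mb of intron sequence that meets the position rule, in bins of distance from the nearest coding start, downstream and upstream of it, with exact Poisson 95% intervals. Downstream density runs from 63.8 in the nearest bin to 32.0 in the farthest; upstream density is highest, at 83.6, in the nearest bin.

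First introns held most of these peaks. The summit lay in the first intron of at least 1 transcript for 425 of 502 peaks, 84.7% (81.2 to 87.7), while such introns made up 66.6% of the sequence that meets the rule. It lay in the first intron of every transcript that spans it for 296 (59.0%). The side of the start, by contrast, was close to that of the sequence over the whole range, but not at each distance. The summit lay downstream of the nearest start for 342 peaks, 68.1% (63.9 to 72.2), while 66.8% of the sequence did. Upstream density was above downstream density at over 500 to 800 bp (83.6 against 63.8 per Mb) and at over 1700 to 2000 bp (43.1 against 32.0). In the bins between it was below, as at over 1100 to 1400 bp (24.7 against 45.9). Among the 160 upstream summits, 130 lay before an inner start of their own host gene, as at COX7AL2 and Asator. The other 30 lay before the start of another gene that does not span the summit, as at ush and cbt. Whether that gene lies within its host was not checked. A further 6 lay downstream of the start of another gene. The introns had a median length of 4152 bp and ran from 140 to 73902 bp.

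The nearest start itself often had no IDR summit near it. No such share over all coding starts is given here, and weaker calls of the relaxed pooled list were not searched at these starts. An IDR summit lay within 500 bp of it for 216 of the 502 peaks (43.0%). Those 216 peaks had a median pooled signal of 236.94 and 45.8% were recovered in all 3 replicates, against 226.31 and 52.4% for the 286 whose nearest start had no IDR summit. A stronger pooled summit lay within 400 bp of 38 peaks (7.57%), so few of the 502 were shoulders of a stronger neighbour. The share was 13.0% of all IDR peaks and 15.8% of promoter peaks, but lower in far introns (4.11%) and at intergenic peaks (4.88%). An annotated transposable element held 1 summit (0.199%), while 2.54% of the sequence that meets the rule was annotated so. Arm 2L held 82 peaks (45.9 per Mb of such sequence), 2R 95 (49.4), 3L 91 (45.9), 3R 116 (51.3), X 116 (57.1) and chromosome 4 held 2 (17.4). Chromosome 4 offered only 0.115 Mb of such sequence, so its value rests on very few peaks. All IDR peaks stood at 42.3 per Mb of chromosome 4, 55.3 of X and from 50.3 (3L) to 55.8 (2L) on the other arms.

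The peaks lay in 431 host genes, which is 4.80% of the 8984 protein-coding genes with any sequence that meets the rule. Of these hosts 349 held 1 peak, 67 held 2 and 15 held 3 or more. A gene can hold a peak only where it has such sequence, and hosts had a median of 2902 bp of it against 383 bp over all 8984 genes. Some start of the host had an IDR summit within 500 bp for 305 of the 431 hosts (70.8%), against 4414 of the 8984 (49.1%). Hosts also had more starts, a median of 2 against 1, and the part of gene size in these differences was not tested.

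CG1677 held 7 of the peaks, more than any other gene. Of these, 5 lay in its second intron of 73902 bp, each upstream of the start of another gene. The peak 810 bp upstream of unc-119 had 0.687 and 0.868 in replicates 1 and 4, with no summit in replicate 2. The peaks 652 and 1918 bp upstream of brk, which encodes a repressor of Dpp target genes, had 0.727, 1.11 and 0.484, and 0.759, 0.521 and 0.621. The peak 1203 bp upstream of CG42780 had 0.621, 0.523 and 0.4998. The peak 1014 bp upstream of CBP had 1.05, 1.13 and 1.35, the highest of the 5 in every replicate. The other 2 lay in introns of Dok and CBP, and both genes overlap CG1677. All 7 were thus tied by distance to other genes than CG1677.

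The other 14 hosts with 3 or more peaks held 3 to 5 each. Tlk, a chromatin-linked kinase, held 5, with means from 0.963 ± 0.309 down to 0.331 ± 0.0667 (SD, n = 3 each). CG10543 held 4 and Trl held 4. At Trl the 2 strongest, 7.37 ± 0.161 and 3.85 ± 0.436, were over 4 times the other 2 in every replicate where these had a summit, at 0.696 ± 0.188 (n = 3) and 0.646 ± 0.105 (n = 2). NFAT and CHES-1-like, a forkhead factor gene, held 3 each, with their strongest at 2.11 ± 0.899 and 1.51 ± 0.538. Src64B, a Src family kinase, shn, a mediator of Dpp signalling, tou, SNF4Agamma, Tpr2, Kank, ush, CG42258 and CG43658 also held 3 each. At CG42258, CG43658, SNF4Agamma, tou and CG10543 a counted peak lay within 400 bp of a stronger summit, so these counts include shoulders. Peaks in 1 gene can also share sequence and chromatin, so they do not count as independent sites.

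Hosts were counted in 8 hand-written gene lists, which are samples of each class and not all its members. The share was highest in the list of signalling genes, most from the Wnt, Hedgehog, Dpp, Notch and EGFR pathways and some from others, such as Stat92E and puc. Of its 66 genes with sequence that meets the rule, 17 were hosts (25.8%), against 4.80% of all such genes. They held 20 peaks, or 136 per Mb against 49.7 per Mb overall. The hosts were Dad, Dsor1, Egfr, Mad, Raf, S, Stat92E, arr, drk, pnt, puc, put, sgg, shn, spi, sty and tkv, from receptors (Egfr, tkv, put) and kinases (Raf, Dsor1) to transcription factors (Mad, pnt). Their strongest peaks were weak beside those above. The strongest was at shn with 0.998, 0.772 and 1.40, and the next was 633 bp upstream of an inner start of Mad, the Smad of Dpp signalling, with 0.782, 1.11 and 1.26. Both groups of values straddled the replicate median of 1.

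The list of kinases and small GTPases followed, with 15 hosts among 73 genes (20.5%) and 132 peaks per Mb. The list does not hold the kinase genes Asator and Tlk described above. Its strongest peak lay 960 bp upstream of an inner start of Lk6, a kinase that phosphorylates a translation initiation factor, at 3.15, 2.93 and 4.88. The pseudokinase gene trbl had 1.79, 1.47 and 1.30. Cytoskeleton and adhesion genes had 12 hosts of 72 (16.7%) and 57.7 per Mb, led by cno and by the dynein heavy chain gene Dhc64C at 2.11, 1.49 and 2.51. Per gene these groups lay above the background of 4.80%, and per Mb the cytoskeletal group lay near it.

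Chromatin regulators had 6 hosts of 59 (10.2%) but the highest density, 203 per Mb, with 10 peaks in 0.0494 Mb. Of these 10, 4 lay in Trl, and the other hosts were Sin3A, fs(1)h, mod(mdg4), osa and ph-p. RNA-binding and translation genes had 7 of 64 (10.9%) at 37.96 per Mb, led by brat, a translational repressor of neural stem cells, at 1.66, 1.76 and 1.86, and by mub at 1.56, 1.07 and 2.29. Ion channel and neuronal genes had 9 of 76 (11.8%) but only 31.7 per Mb. Their strongest peaks were at the axon guidance genes Dscam1, with 2.66, 3.04 and 3.003, and robo2, with 1.72, 2.06 and 2.13. Ecdysone and nuclear receptor genes had 2 of 24 (8.33%) at 22.2 per Mb. These were Hr4, a nuclear receptor, with 0.591 and 0.620 in replicates 1 and 4 and no summit in replicate 2, and br, with 0.636, 0.443 and 0.683 at a summit upstream of Mur2B.

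The list of homeobox and segmentation factors had 1 host of 54 (1.85%, against 4.80% of all such genes) and 17.5 per Mb. With so few genes the difference is small in number. That host was Abd-B, the posterior Hox gene, with 0.710, 1.11 and 1.38 at 1 summit and 0.555, 1.01 and 0.605 at the other. The groups differ in how much sequence they offer. The median gene had 1387 bp among signalling genes, 1191 bp among kinases, 1500 bp among cytoskeletal genes, 398 bp among chromatin regulators, 2909.50 bp among neuronal genes and 1199 bp among homeobox genes. Hosts outside the list included the homeobox genes zfh1, with 1.40, 1.13 and 1.49, and NK7.1, with 0.862, 0.367 and 0.642, both named after their values were seen. No test was run on the lists, which were chosen with earlier results of these data known.

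Words searched within 100 bp of the summit, on both strands, were set beside other peaks and beside every window of the same 201-bp width whose centre meets the position rule. GCAACNCT was present at 26 of 502 near-start intronic peaks, 5.18% (3.41 to 7.50). It was present at 3.97% of far intronic, 8.77% of promoter, 2.37% of lower-ranked peaks, 1.74% of all windows and 7.73% of all IDR peaks. The share was therefore below that of the IDR list as a whole and above that of weaker calls at like positions. It was uneven within the 502. The word was at 5 of the 12 strongest peaks, 9 of the 50 strongest and 17 of the other 452 (3.76%). Without the 12 strongest, the share was 4.29%. Of the 26 peaks, 18 (69.2%) were recovered in all 3 replicates, against 49.6% of the 502.

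GCAACNCT lay near the summit at part of the 26 peaks, a distance that the 60-base lines given first do not mark. Its middle was within 20 bp of the summit at 11 of 26 peaks (42.3%), against 33.3% of promoter peaks with the word, and at 7 of the 9 among the 50 strongest. At COX7AL2 and at robo2 the distance was 0.5 bp, at Pdha 1.5 bp and at CtBP, which encodes a corepressor, 2.5 bp. At Fs(2)Ket it was 15.5 bp on one side and at Prp16 36.5 bp on the other. Peaks with a site further out were mostly weak, among them Sik3 and Tlk at 87.5 bp with means of 0.702 and 0.531. Another was a second trbl peak, other than the one given above, at 96.5 bp with 0.734 and a stronger summit within 400 bp.

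All 5 sites among the 12 strongest peaks had T before and G after the word. This longer form was noticed in those 5 sequences, so every value that includes them is a description in part fixed by that choice. It was present at 11 of the 502 peaks (2.19%). Outside the 12 strongest it was present at 6 of 490 (1.22%, 0.451 to 2.65), an alternative chosen after seeing the data, against 1.56% of far intronic, 1.57% of promoter, 0.203% of lower-ranked peaks, 0.153% of all windows and 1.60% of all IDR peaks. Without the peaks that prompted it, the share was thus within counting error of other IDR peaks and above that of lower-ranked ones. These 6 peaks had a median pooled signal of 256.73, against 219.18 for the 15 with the shorter word only, and 4 of the 6 were recovered in all 3 replicates, against 9 of the 15. The long form was not sufficient for a strong peak. Tlk, at 0.437, 0.414 and 0.743, and AMPdeam, an AMP deaminase gene, at 0.637, 0.418 and 0.439, had it and lay below the replicate median in all 3 replicates. Nor was it present at all strong ones, with Dscam1 at 2.90 ± 0.211 and wde at 2.66 (mean, n = 3) having the shorter word only.

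**Figure D4:**
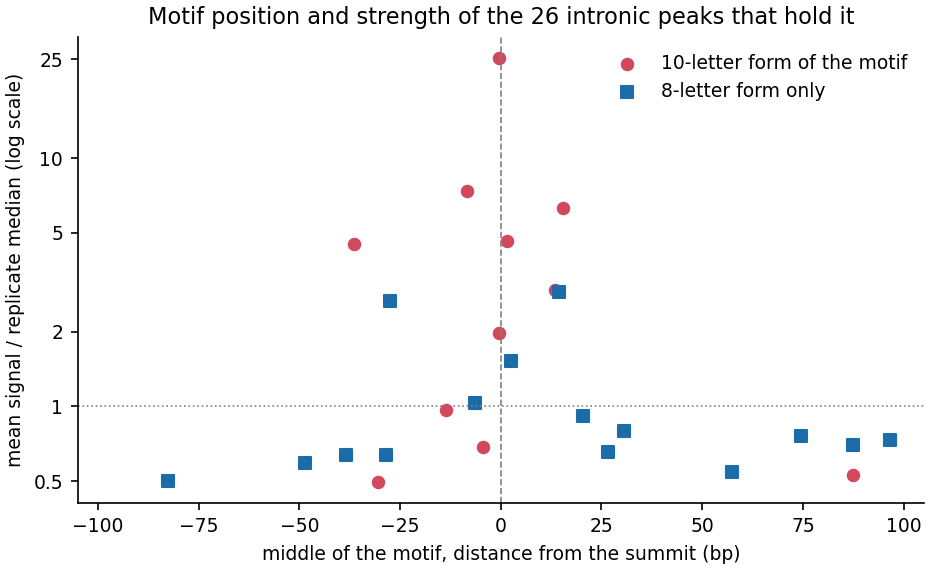
Mean relative signal (log scale) of the 26 near-start intronic peaks with GCAACNCT against the distance of the middle of the word from the summit; red points have T before and G after it (the 10-letter form), blue ones only the 8-letter word. The 5 highest points, at 4.52 to 25.3, are the peaks in which the longer form was noticed and lie within 36.5 bp of the summit, and 4 red points lie below 1.

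TATCGATA was present at 6 of 502 peaks, 1.20% (0.440 to 2.58), against 0.850% of far intronic, 16.3% of promoter, 0.778% of lower-ranked peaks, 0.423% of all windows and 12.5% of all IDR peaks. The highest was Stt3A, which encodes the catalytic subunit of oligosaccharyltransferase, at 2.12, 1.68 and 2.35, with the site 1.5 bp from the summit. Ncoa6, a coactivator of nuclear receptors, had 1.48, 2.33 and 1.46, with the site 59.5 bp away and a stronger summit within 400 bp. Atg17, an autophagy gene, had 1.70, 2.05 and 1.48. Then came woc at a mean of 1.46 and Tudor-SN, a nuclease gene, at 1.24. Imp, an RNA-binding protein gene, at 0.761, was the 1 peak that also held GCAACNCT. None of the 12 strongest peaks held TATCGATA. Its core CGATA, which also matches inside it, was at 23.1% of the near-start intronic peaks, 23.7% of far intronic, 53.9% of promoter peaks and 21.4% of windows. GGTCACACT, another promoter word, was at 1 peak (0.199%), against 7.84% of promoter peaks and 0.0949% of windows. Both promoter words were thus far rarer than at promoters. TATCGATA was about as frequent as at far intronic and lower-ranked peaks within counting error, and the interval of its share lay just above the share of windows. It was at 5 of the 126 strongest near-start intronic peaks (3.97%) and at 1 of the others.

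GAGAG, the core of the element bound by the GAGA factor, was at 133 of 502 peaks, 26.5% (22.7 to 30.6). Far intronic peaks had it at 25.9%, promoter peaks at 16.6%, lower-ranked peaks at 24.4%, windows at 21.0% and all IDR peaks at 19.0%. The share was above that of promoter peaks and within counting error of far introns and of lower-ranked peaks. It did not vary in one direction with strength, at 27.8%, 28.8%, 24.0% and 25.4% in 4 groups of 125 or 126 peaks from strongest to weakest. ACACACAC was at 6.77% of near-start intronic, 5.67% of far intronic, 2.44% of promoter and 6.12% of lower-ranked peaks. CAGCTG was at 9.16%, 6.80%, 15.8% and 8.32% in the same order. CAGGTAG, the element of the zygotic activator Zelda, was at 4 peaks (0.797%), against 1.00% of windows. TATAAA was at 191 of 502 near-start intronic peaks (38%) and 36.3% of far intronic ones, against 27.0% of lower-ranked peaks and 25.8% of windows. TGCATA was at 18.3% and 17.3%, against 14.5% and 14.4%. Over all IDR peaks the 2 words were at 32.9% and 12.9%. Both were thus within counting error of far intronic peaks. The bases themselves differed too. The 201 bp around the summit had a median GC content of 35.3%, against 35.8% at far intronic, 36.8% at promoter and 39.3% at lower-ranked peaks, and the sequence that meets the rule had 38.5%. The part of base composition in the shares of AT-rich words such as TATAAA was not tested.

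**Figure D5:**
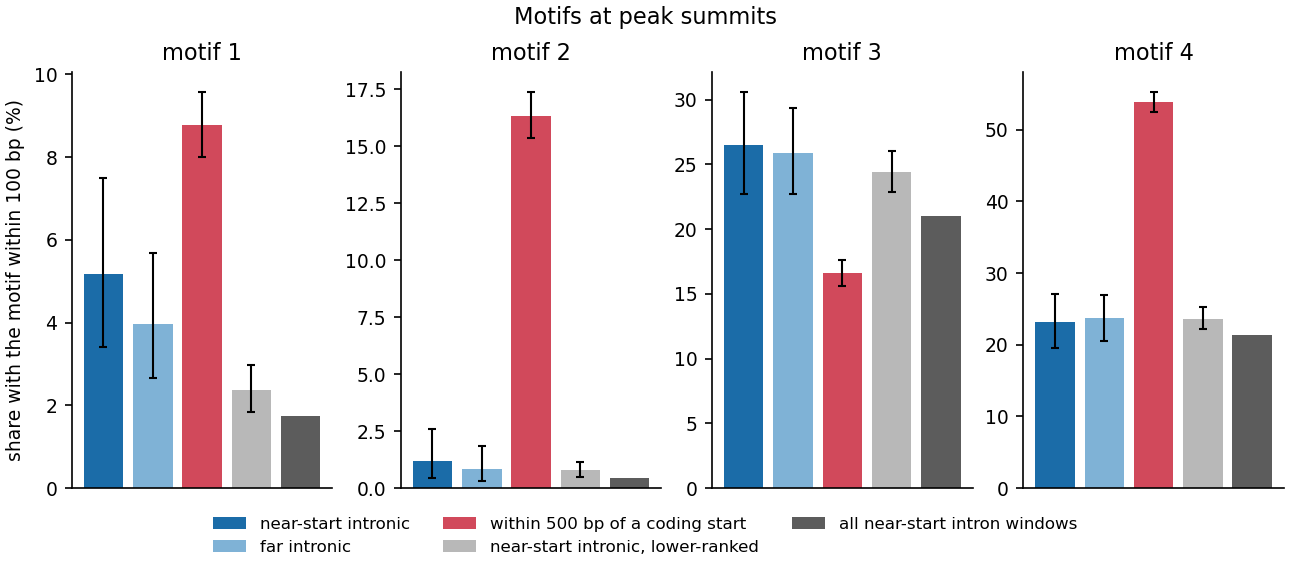
Share of summits with a word within 100 bp, with exact 95% intervals, for near-start intronic IDR peaks and 4 comparison sets; motif 1 is GCAACNCT, motif 2 TATCGATA, motif 3 GAGAG and motif 4 CGATA, each on its own scale from 0. Near-start intronic peaks lie close to far intronic ones in all 4 panels and differ from promoter peaks most for TATCGATA, 1.20% against 16.3%.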

How the data were processed

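Peak lists were deposited by the authors for 3 replicates and for pooled replicates, 30000 peaks each, with an optimal IDR list, on dm6. Each holds the deposited signal of a peak, the authors' caller value, which was used only within a list or after division by a replicate's median. The aligner, the caller with its version, and the cutoff of the IDR step: not given in the sources used here. Depth is unknown. Starts and introns came from Ensembl release 115, with its transposable elements left out as transcripts, and sequence from RefSeq's copy of dm6. Coordinates are 1-based. Shares have exact Clopper-Pearson 95% intervals, densities exact Poisson ones. The single test was an exact sign-flip permutation over replicates. Scripts (Python 3.11.15, numpy 2.4.6, pandas 2.3.3, scipy 1.17.1, matplotlib 3.10.9) were tested on simulated data.

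Peaks were named by rule: the 12 strongest, the strongest 3 with GCAACNCT, with TATCGATA and with neither, the 2 strongest hosted by each of 8 gene lists, hosts of 3 or more peaks and peaks at the distance limits. Others were named after their values were seen: crol, CtBP, wde, the second trbl peak, Sik3, AMPdeam, zfh1, NK7.1, woc, Tudor-SN and Imp. The peaks described, the lists and the words were chosen with earlier results of these data known. The alternatives tried concern distances, windows, matching and replicates.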

Additional observations from a re-analysis of the deposited data

How the results depend on the processing

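Of 69 alternatives, 17 moved the value and 52 did not, where a share or difference had to stay within its counting or replicate error and a number of peaks within 1.5 times. The number was 654 with an inner distance of 300 bp and 402 with an outer one of 1500 bp. Only the signal difference from far introns has a direction of its own, and it stayed positive. The shares and counts were not set beside comparison sets in these alternatives, so their direction was not followed. The downstream share was 58.6% with the inner distance of 300 bp, and with 1000 bp it was 73.5% and the number of peaks 245. Among the 3568 strongest IDR peaks the number was 155, the share recovered in all replicates 89.0% and that with TATCGATA 3.23%. The recovered share was 31.5% with a match distance of 50 bp, 58.8% with 200 bp and 83.3% with whole replicate lists. GAGAG was at 11.2% of peaks within 50 bp and at 50% within 200 bp, and GCAACNCT at 9.36% within 200 bp, as wider windows hold more words. Requiring recovery in 2 replicates with 1 left out gave shares from 54.4% to 68.7% and 273 to 345 peaks. The log2 difference from far introns was 0.17 to 0.23 throughout. Counting transposable elements as transcripts, chosen after seeing the data, gave 497 peaks, adding RefSeq starts gave 502, and GCAACNCT without the 12 strongest peaks was at 4.29%.

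No paired analysis was possible because there is 1 group of samples. The sign-flip test sets 2 classes of peaks side by side within each replicate. The lists come from 1 pooled call over the same 3 libraries, so leaving out a replicate is a stricter filter. Recovery, which is defined by signal, was lower for weaker peaks, and depth cannot be judged from the lists.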

Other observations

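Words of 6 letters were counted within 100 bp of the summits after the data had been seen, with no test. Words of A and T led, such as TTAAAA at 46.4% of near-start intronic, 44.2% of far intronic, 50.6% of promoter and 33.2% of lower-ranked peaks. Among words with at least 3 G or C, ACAGTG had the widest gap to lower-ranked peaks, at 110 of 502 near-start intronic peaks (21.9%), 17.7% of far intronic, 13.8% of promoter and 12.9% of lower-ranked peaks.

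At the 26 near-start intronic peaks with GCAACNCT, the open position was C at 11, T at 8, A at 5 and G at 2. Of the 453 promoter peaks with the word, C stood there at 24.9%, T at 24.5%, A at 29.8% and G at 20.8%. T before the word was noticed in the 5 sites among the 12 strongest peaks. At the 21 other peaks with the word it stood there at 8 (38.1%, exact 95% interval 18.1 to 61.6), at 26.3% of the promoter peaks and at 27.1% of the 70 lower-ranked intronic peaks with it.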
